A study of Macaca fascicularis with 2 samples.

Results

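The pyruvate dehydrogenase complex, its kinases and its phosphatases were followed as 10 genes in gastrocnemius, a calf muscle, of the cynomolgus macaque, Macaca fascicularis. The genes were chosen by name: the subunits PDHA1, PDHB, DLAT and PDHX, the kinases PDK1, PDK2, PDK3 and PDK4, and the phosphatases PDP1 and PDP2. All 10 were found by symbol among 28175 genes, and their counts were summed over every transcript model of the gene. The study sequenced RNA of 1 sample labelled lean, on a chow diet, and 1 labelled non-lean, on a high fat diet, and asked which genes differ between lean and obese muscle. The labels used here give no age, sex, animal number or length of diet, and no genetic change in either sample.

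The complex sits in the mitochondrial matrix and turns pyruvate, the end product of glycolysis, into acetyl-CoA for the citric acid cycle. Its E1 enzyme, made of PDHA1 and PDHB, decarboxylates pyruvate, its E2 core, DLAT, passes the acetyl group to coenzyme A, and PDHX binds the E3 enzyme DLD to that core. The kinases switch the complex off by phosphorylating the PDHA1 protein, and the phosphatases switch it back on. In skeletal muscle this switch sets how much glucose is oxidised against fatty acids, and PDK4 is known as the kinase gene that fasting and fatty acids induce.

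The lean library held 15983348 counts and the non-lean library 12731974. Levels are given as scaled CPM, counts set against the library's total after trimmed-mean scaling, and differences as a log2 ratio, non-lean over lean. Brackets hold exact 95% counting intervals, which cover counting error and no variation between animals. With 1 library per group no difference has a replicate check, no test was possible and no p-value is given. A gene is called tested if its scaled CPM averaged at least 1 over both libraries. This held for 13707 genes, among them all 10 members. The sources used here give no transcript lengths, so levels are set between libraries and not between genes. Muscle fibre markers such as ACTA1 and CKM were abundant in both libraries, with a summed level of 236082 scaled CPM over 10 matched markers in the lean against 185520 in the non-lean library.

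The non-lean library had more PDHA1 and PDK2 RNA and less PDHX, PDP1 and PDP2 RNA than the lean library, while PDK4 stood at nearly the same level in both. The interval lay above 0 for 2 of the 10 members, PDHA1 and PDK2, against 25.8% of all tested genes. It lay below 0 for 5 members, DLAT, PDHX, PDK3, PDP1 and PDP2, against 28.8% of tested genes. The other 3, PDHB, PDK1 and PDK4, had intervals that held 0. At least 2-fold lower was 1 member, PDP2, against 7.16% of tested genes, and no member was at least 2-fold higher, against 4.91%. PDP2 counted as tested only through the lean library, at 2.50 scaled CPM there against 0.897 in the non-lean library, on 38 and 12 counts. At a fold of 1.5, 4 members were lower, PDHX, PDK3, PDP1 and PDP2, where the share of tested genes was 15.4%, and none was higher, where it was 11.9%. The median log2 ratio of the 10 members was -0.18, beside -0.01 for all tested genes, whose quartiles were -0.39 and 0.34. Scaling by total counts instead lifts every ratio by 0.14 and changes the split of genes at least 2-fold apart from 673 higher and 982 lower to 931 and 732. In whole tissue fewer cells of a type and less RNA per cell cannot be told apart.

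**Figure D1:**
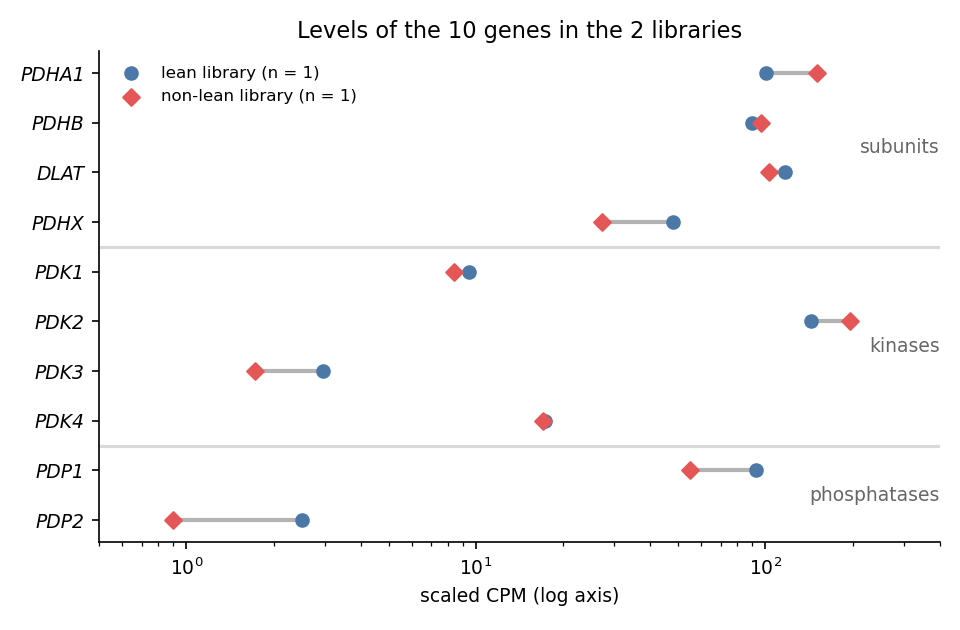
Scaled CPM (log axis) of the 10 genes in the lean (circle) and the non-lean library (diamond), 1 library each, so there are no error bars. PDHA1 and PDK2 lie further right in the non-lean library, PDHX, PDK3, PDP1 and PDP2 further left, and the points of PDK4 coincide; positions of different genes are not comparable because lengths are not given.

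The subunits did not move together. PDHA1, the catalytic alpha subunit of E1 and the protein that the kinases phosphorylate, had 1526 counts in the lean against 2009 in the non-lean library. Its level was 100.3 scaled CPM in the lean against 150.2 in the non-lean library. That is a log2 ratio of 0.58 [0.49, 0.68], higher than in 86.3% of tested genes and just short of 1.5-fold. The intronless copy PDHA2, known from testis, held 7 and 12 counts, so few of the reads were assigned to it. PDHB, the beta subunit that pairs with PDHA1 in E1, had 1371 and 1291 counts, or 90.1 and 96.5 scaled CPM. Its ratio of 0.10 [-0.01, 0.21] held 0, so no difference was detectable at this depth. Under upper quartile scaling the interval of PDHB lay above 0, at 0.14 [0.03, 0.25], as it did with total counts, at 0.24 [0.13, 0.35].

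DLAT, the acetyltransferase core, had 1783 counts in the lean against 1379 in the non-lean library, at 117 and 103 scaled CPM. Its ratio was -0.18 [-0.29, -0.08], a small difference, and with total counts the interval held 0, at -0.04 [-0.15, 0.06]. PDHX, the E3-binding protein, had 730 and 364 counts, at 48.0 and 27.2 scaled CPM. In the non-lean library it was 1.76-fold lower, at -0.82 [-1.003, -0.634], and 10.5% of tested genes had a lower ratio. Of the 4 subunits PDHX was furthest from 0, and its interval stayed below 0 under each of the 4 scalings. The counts of the 4 subunits summed to 5410 in the lean against 5043 in the non-lean library, or 355 and 377 scaled CPM, a ratio of 0.09 [0.03, 0.14]. The sum was therefore close to level while its makeup differed.

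Shares within a library do not depend on how the libraries are scaled. PDHA1 took 28.2% of the subunit counts (95% Clopper-Pearson interval 27.0 to 29.4) in the lean against 39.8% (38.5 to 41.2) in the non-lean library. PDHX took 13.5% (12.6 to 14.4) and 7.22% (6.52 to 7.97). DLAT went from 33.0% (31.7 to 34.2) to 27.3% (26.1 to 28.6), and PDHB took 25.3% (24.2 to 26.5) and 25.6% (24.4 to 26.8). The E1 partners thus did not keep their proportion. The count ratio of PDHA1 to PDHB was 1.11 in the lean against 1.56 in the non-lean library, a log2 change of 0.48 [0.34, 0.63]. The count ratio of PDHX to the DLAT core it binds was 0.409 and 0.264, a log2 change of -0.63 [-0.85, -0.42]. PDHX was also lower against PDHB, with a log2 change of -0.92 [-1.13, -0.70].

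DLD, the E3 enzyme that restores the lipoyl groups and is shared with related complexes, is not one of the 10 genes. It had 1330 and 1426 counts, or 87.4 and 106.6 scaled CPM, with a ratio of 0.29 [0.18, 0.40]. DLD and its anchor PDHX therefore lay on opposite sides of 0. The count ratio of DLD to DLAT was 0.746 in the lean against 1.03 in the non-lean library, a log2 change of 0.47 [0.32, 0.62].

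Most kinase reads came from PDK2, the kinase broadly present in muscle. PDK2 had 2185 counts in the lean against 2624 in the non-lean library, at 143.6 and 196.2 scaled CPM. It was 1.37-fold higher in the non-lean library, at 0.45 [0.37, 0.53], and 80.7% of tested genes had a lower ratio. Its share of the kinase counts was 82.9% (81.4 to 84.3) in the lean against 87.8% (86.6 to 89.0) in the non-lean library. Neither interval of the share reached the other.

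PDK4, the kinase induced by fasting, had 263 counts in the lean against 228 in the non-lean library. Its level was 17.3 scaled CPM in the lean against 17.1 in the non-lean library, a ratio of -0.02 [-0.28, 0.24] that 49.5% of tested genes fell below. A difference of the kind seen for PDK2 would exceed the upper bound of this interval. The sign of the PDK4 ratio turned with the scaling, at 0.02 with upper quartile scaling and 0.12 with total counts, and the interval held 0 in each case. Against PDK2, PDK4 was lower in the non-lean library: the count ratio was 0.120 in the lean against 0.0869 in the non-lean library, a log2 change of -0.47 [-0.75, -0.20]. Its share of kinase counts was 9.97% (8.86 to 11.2) and 7.63% (6.71 to 8.64). Over these 2 libraries the tested genes nearest to PDK4 in level were WWP2, PXK and E2F3, at distances of 0.0199, 0.0252 and 0.0253 on the log2 scale, and with 2 libraries this says no more than that their levels were alike.

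PDK1, a kinase gene known as a target of the hypoxia factor HIF1, had 144 and 112 counts, at 9.46 and 8.38 scaled CPM. Its ratio of -0.17 [-0.55, 0.19] held 0. PDK3, a further isoform, was sparse with 45 and 23 counts, at 2.96 and 1.72 scaled CPM. The ratio of PDK3 was -0.77 [-1.57, -0.03], with an interval that reached almost to 0. It held 0 with upper quartile scaling, at -0.73 [-1.53, 0.02], and with total counts, at -0.63 [-1.43, 0.12]. Relative to PDK2 both were lower in the non-lean library, with log2 changes of the count ratio of -0.63 [-1.01, -0.25] for PDK1 and -1.23 [-2.03, -0.47] for PDK3.

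Both phosphatases had less RNA in the non-lean library. PDP1, the calcium-stimulated phosphatase that is the main isoform of muscle, had 1410 counts in the lean against 732 in the non-lean library. Its level was 92.7 scaled CPM in the lean against 54.7 in the non-lean library. PDP1 was 1.69-fold lower, at -0.76 [-0.89, -0.63], and 11.95% of tested genes had a lower ratio. PDP2, the second catalytic isoform, had 38 and 12 counts, at 2.50 and 0.897 scaled CPM. Its ratio of -1.44 [-2.55, -0.51] rests on 50 counts in all, and PDP2 counted as tested through the lean library. Both intervals stayed below 0 under each of the 4 scalings. With its leading transcript model alone in place of the sum, PDP1 turned to 0.30 [0.11, 0.49]. PDPR, the regulatory subunit that restrains PDP1, is not among the 10 genes and was lower as well. It had 161 and 49 counts, a level of 10.6 scaled CPM in the lean against 3.66 in the non-lean library, and a ratio of -1.52 [-2.02, -1.06].

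**Figure D2:**
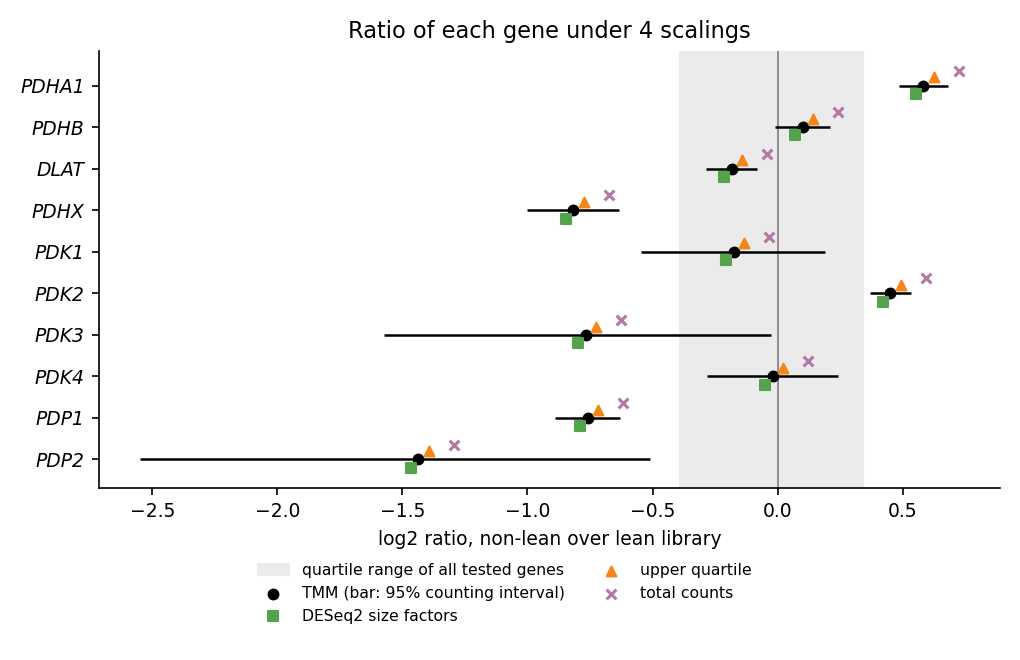
Log2 ratio, non-lean over lean library, for each gene (points) under 4 scalings of the libraries, with the exact 95% counting interval of the trimmed-mean (TMM) value as a bar and the quartile range of all 13707 tested genes shaded. PDHA1 and PDK2 lie above 0 and PDHX, PDP1 and PDP2 below 0 under each scaling, whereas the points of PDK4 fall on both sides of 0.

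Summed kinase counts were higher and summed phosphatase counts lower in the non-lean library, although the kinases did not share one direction. The 4 kinases summed to 2637 counts in the lean against 2987 in the non-lean library, a ratio of 0.37 [0.29, 0.44], and PDK2 was the one kinase with an interval above 0. The interval of PDK3 lay below 0, those of PDK1 and PDK4 held 0, and the median ratio of the 4 kinases was -0.10. The 2 phosphatases summed to 1448 and 744 counts, a ratio of -0.77 [-0.90, -0.65], and all but 38 and 12 of these counts were from PDP1. Kinase counts were 1.82 times the phosphatase counts in the lean against 4.01 times in the non-lean library, a log2 change of 1.14 [0.99, 1.29] that is free of the scaling. For the leading pair, PDP1 against PDK2, the count ratio was 0.645 in the lean against 0.279 in the non-lean library, a log2 change of -1.21 [-1.36, -1.06]. Against their substrate PDHA1, PDP1 was 2.54-fold lower, at -1.34 [-1.51, -1.18], while PDK2 differed by -0.13 [-0.26, -0.005]. In summed counts the kinase and its substrate were therefore nearly in proportion, and the phosphatase was not. With the leading transcript model alone, PDK2 stood at 0.88 and PDP1 at 0.30, beside 0.58 for PDHA1. PDP1 was again the lowest of these, but above 0. The lower level of PDP1 in the non-lean library and the near proportion of PDK2 to PDHA1 therefore depend on summing the models. These are RNA counts, and the phosphorylation and activity of the complex were not measured here.

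**Figure D3:**
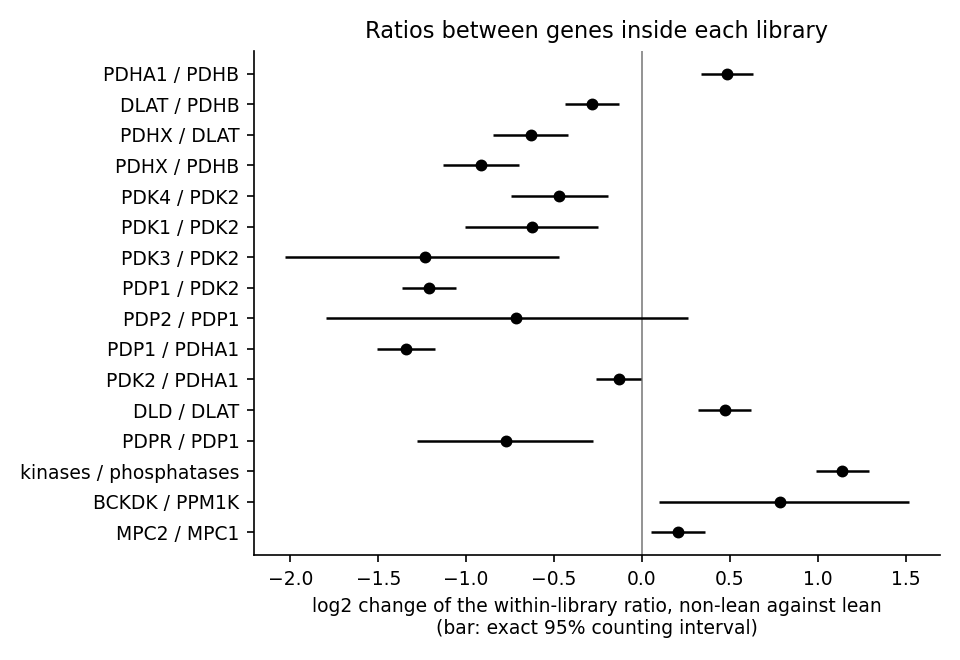
Log2 change, non-lean against lean, of the count ratio between 2 genes or groups inside a library, with exact 95% counting intervals. PDHA1 to PDHB, DLD to DLAT and kinases to phosphatases lie above 0, the ratios with PDHX or PDP1 over another gene below 0, and PDP2 to PDP1 has an interval that holds 0.

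The deposited values divide each gene's reads among RefSeq transcript models, and this division differed between the libraries for PDK2, PDP1 and PDK1. Such estimates rest on the few reads that tell the models apart, so the intervals below are narrower than the true uncertainty. The labels' protocol names both single-end and paired-end reads, so the libraries may differ in read layout, and the part of layout in the division among models was not tested. The 2 models of PDK2 had 1364 and 822 estimated counts in the lean against 2200 and 424 in the non-lean library. The first was higher in the non-lean library, at 0.88 [0.78, 0.97], and the other lower, at -0.77 [-0.94, -0.60]. The leading model held 62.4% (60.4 to 64.5) of PDK2 in the lean against 83.8% (82.4 to 85.2) in the non-lean library.

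PDP1 had 4 models with counts. Its leading model had 442 estimated counts in the lean against 478 in the non-lean library and was higher there, at 0.30 [0.11, 0.49]. The next models went from 575 to 155 and from 357 to 98.3, at -1.70 [-1.97, -1.45] and -1.67 [-2.02, -1.35]. The fourth had 36.6 in the lean library and was listed at 0 in the other. The lower total of PDP1 thus came from models other than the leading one, whose share was 31.3% (28.9 to 33.8) in the lean against 65.3% (61.7 to 68.7) in the non-lean library.

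In PDK1 the leading coding model had 102 and 47.3 estimated counts, at -0.91 [-1.46, -0.42]. A non-coding model of the gene had 14.6 and 42.8, at 1.70 [0.83, 2.66], so a lower leading coding model stood beside a gene total whose interval held 0. The 38 counts of PDP2 in the lean library were all assigned to one model and the 12 in the non-lean library all to another. PDHA1, PDHB, DLAT, PDK3 and PDK4 had a single model each. In PDHX the one model with a curated accession held 97.8% of the lean and 97.3% of the non-lean counts, and it carried the difference of the gene.

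**Figure D4:**
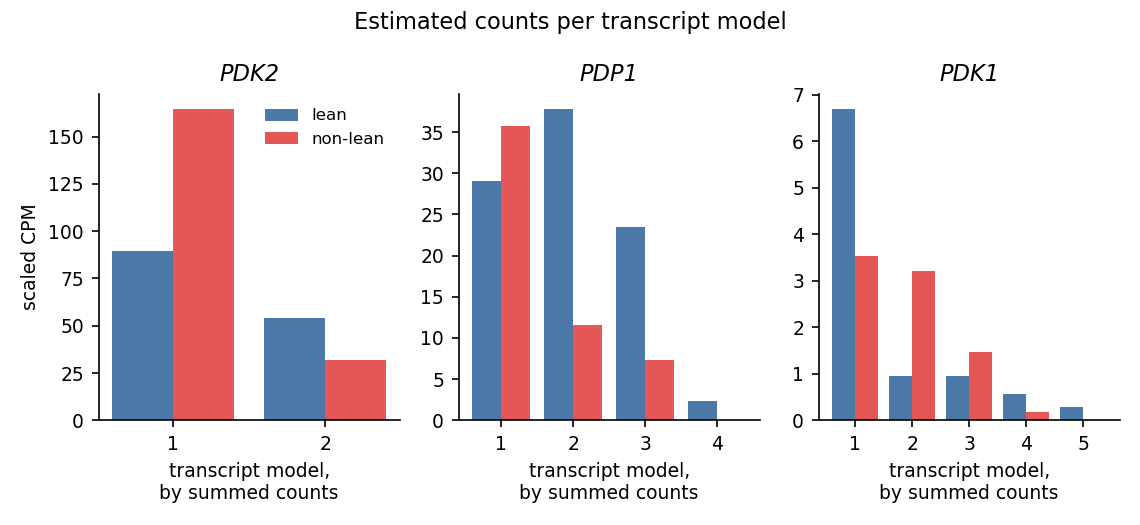
Scaled CPM (linear axis from 0) of each transcript model with counts, ordered by summed counts, for PDK2, PDP1 and PDK1, in the lean and the non-lean library (1 library each, no error bars). The leading models of PDK2 and PDP1 are higher in the non-lean library while the models after them are lower in it, and in PDK1 the leading model is lower and the next one higher.

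Genes around the complex were taken from lists of pyruvate metabolism and of the known control of the kinases. Among 11 tested genes of pyruvate supply and other uses the interval lay above 0 for 3 and below 0 for 3, with a median of 0.01. Over all tested genes 25.8% of intervals lay above 0 and 28.8% below, so this list was close to the background. Both subunits of the mitochondrial pyruvate carrier, which brings the substrate in, were slightly higher, MPC1 at 0.16 [0.03, 0.28] and MPC2 at 0.37 [0.27, 0.46]. The highest was the malic enzyme ME2 at 0.43 [0.17, 0.69]. PKM, the pyruvate kinase of muscle, was lowest, with 67894 and 29349 counts and 2.03-fold less in the non-lean library, at -1.02 [-1.043, -1.004]. LDHA was not matched by symbol and is not analysed here.

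Lipoate is the arm that carries the acetyl group on DLAT and PDHX. The list of 9 tested genes of lipoate synthesis and attachment included genes that supply its iron-sulphur clusters and fatty acid chain. Of these 9, 7 had intervals above 0 and none below, with a median of 0.60. The shares over all tested genes were 25.8% above and 28.8% below. BOLA3, which helps deliver iron-sulphur clusters to lipoate synthase, was highest with 154 and 286 counts, at 1.08 [0.79, 1.37]. The synthase LIAS stood at 0.62 [0.31, 0.93]. The attachment genes LIPT1 and LIPT2 had intervals that held 0, at -0.18 [-0.88, 0.49] and -0.27 [-0.64, 0.08], the latter the lowest. Genes that supply thiamine, the vitamin of the E1 cofactor, had 3 tested members whose intervals all held 0. Among them was the transporter SLC19A2 at -0.01 [-0.25, 0.24]. SLC19A3, with the highest ratio, had 0 and 1 counts and is given no fold.

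A list of related dehydrogenase complexes also held the kinase BCKDK, the phosphatase PPM1K and GCSH of glycine cleavage. It had 1 of 10 intervals above 0, that of GCSH, and 5 below, with a median of -0.23. BCKDK and PPM1K were among the 5 below, beside OGDH, DLST and BCKDHB. Among all tested genes 25.8% lay above and 28.8% below. OGDH and DLST of the 2-oxoglutarate complex stood at -0.20 [-0.26, -0.15] and -0.18 [-0.27, -0.08], close to DLAT. GCSH, the lipoyl carrier of glycine cleavage, was highest at 1.17 [0.95, 1.40]. PPM1K, the phosphatase of the branched-chain keto acid dehydrogenase, was lowest with 69 and 25 counts, at -1.26 [-2.00, -0.60]. Its opposing kinase BCKDK was lower too, at -0.49 [-0.59, -0.39], and the count ratio of BCKDK to PPM1K was 30.9 in the lean against 53.3 in the non-lean library, a log2 change of 0.79 [0.10, 1.52].

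Among 7 genes that use acetyl-CoA 3 intervals lay above 0 and 3 below, with a median of -0.04, beside 25.8% and 28.8% of all tested genes. Citrate synthase, CS, which takes the product of the complex, stood at -0.04 [-0.09, 0.01]. CRAT, which buffers acetyl groups on carnitine, was at 0.36 [0.30, 0.41]. The citrate carrier SLC25A1 was highest at 1.48 [1.28, 1.68] and ACLY, which splits citrate for lipid synthesis, lowest at -0.76 [-1.03, -0.49].

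Known transcription regulators of the kinase genes were mostly lower in the non-lean library. Of 15 tested, 8 had intervals below 0, against 28.8% of all tested genes, and 4 above, against 25.8%, with a median of -0.59. STAT5B was lowest at -1.43 [-1.62, -1.25], the retinoid receptor RXRA stood at -1.17 [-1.26, -1.09] and the glucocorticoid receptor NR3C1 at -0.85 [-0.99, -0.71]. FOXO1, a fasting factor known to raise PDK4, was highest with 380 and 1007 counts, 3.01-fold more in the non-lean library, at 1.59 [1.42, 1.77]. The coactivator PPARGC1A was at 0.36 [0.16, 0.55] and PPARD at -0.60 [-0.85, -0.37]. PDK4 itself stood at -0.02.

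Genes known to be induced together with PDK4 by fasting or fatty acids went both ways. Of 9 tested, 4 had intervals above 0, against 25.8% of all tested genes, and 2 below, against 28.8%, with a median of 0.25. CPT1B, the gate for fatty acids into mitochondria, was highest at 1.45 [1.29, 1.61], and SLC25A20, the carnitine carrier, was at 1.38 [1.04, 1.73]. ACOT2, a mitochondrial thioesterase, was lowest at -1.43 [-1.75, -1.14], and TXNIP, an inhibitor of glucose uptake, stood at -0.87 [-0.91, -0.82]. UCP3 and FBXO32 were near 0, at 0.01 and 0.05. ANGPTL4 of that list was under the tested level, with 6 and 3 counts. Of 9 HIF1 targets 3 had intervals above 0 and 4 below, beside the same 25.8% and 28.8%, with a median of -0.05. CA9 had the highest ratio, 0.99 [-0.03, 2.11], on 13 and 23 counts, and SLC2A1 the lowest, -0.80 [-1.58, -0.08], on 48 and 24.

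Fibre type, mitochondrial and other cell markers moved beside these genes. For comparison, 25.8% of all tested genes had intervals above 0 and 28.8% below. All 6 slow fibre markers had intervals above 0, with a median of 0.93 and a summed level of 9057 scaled CPM in the lean against 15848 in the non-lean library. Of 7 fast fibre markers 6 lay below 0, with a median of -0.46 and summed levels of 69878 and 57823. Their ratios ran from -1.34 for MYH4 to 0.12 [0.11, 0.13] for TNNC2, whose interval lay above 0. Of 37 complex I subunits of the respiratory chain, 34 intervals lay above 0 and 1 below, with a median of 0.59. PDHA1 stood inside that set, with 16 of the 37 at a lower ratio, whereas 3 had a lower ratio than PDHB, 1 lower than DLAT and none lower than PDHX. Genes of 10 very long muscle transcripts, such as NEB and RYR1, had 9 intervals below 0 and a median of -0.45. Markers of other cells were lower beside these. The summed level was 113 scaled CPM in the lean against 67.8 in the non-lean library for 6 adipocyte markers, 90.6 and 27.6 for 6 macrophage markers, 793 and 356 for 5 fibroblast markers, and 220 and 165 for 4 endothelial markers. Their intervals lay below 0 for 4 of 5 tested adipocyte, 5 of 6 macrophage, 5 of 5 fibroblast and 3 of 4 endothelial markers, and for FABP4 among the adipocyte markers above 0. ADIPOQ and CIDEC counted as tested only through the lean library, at 3.02 and 6.31 scaled CPM there against 0.224 and 0.972 in the non-lean library. No adipocyte, macrophage, fibroblast or endothelial marker was at 0 counts, and LEP was nearest with 14 and 2, beside 46 and 3 for ADIPOQ. Most of the adipocyte sum came from LPL, at 67.6 scaled CPM in the lean against 35.7 in the non-lean library, and FABP4, at 24.2 and 29.0. The sum therefore differed less than PLIN1 and CIDEC, which were 6.23-fold and 6.28-fold lower in the non-lean library. The part of fibre type, cell makeup and RNA length in the values of the 10 genes was not tested.

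**Figure D5:**
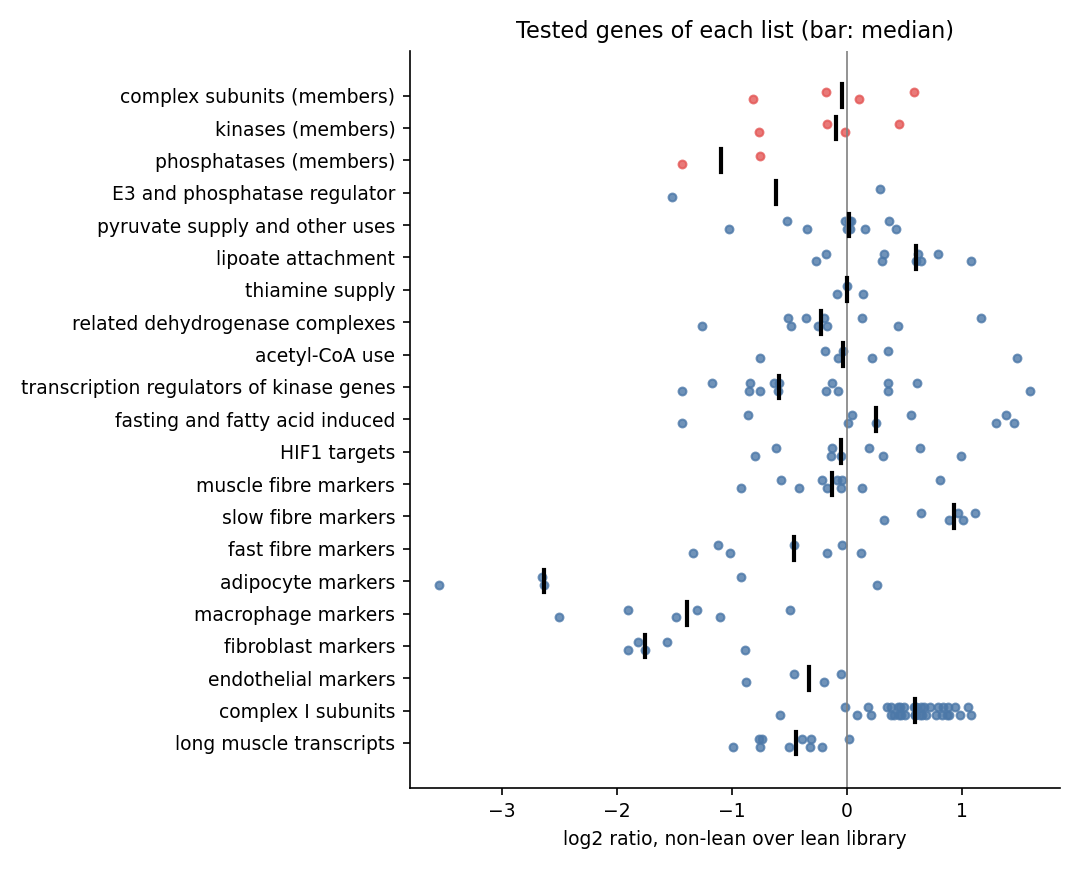
Log2 ratio, non-lean over lean library, for each tested gene (points) of the lists named in the text, with the list median as a black bar and the 10 genes of the complex, its kinases and phosphatases in red. The subunits and kinases spread on both sides of 0 and both phosphatases lie below it, lipoate and complex I genes lie mostly above 0, and markers of fibroblasts and macrophages below it.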

How the data were processed

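RNA of 1 lean and 1 non-lean gastrocnemius sample was sequenced from polyadenylated RNA on a BGISEQ-500 instrument, per the labels' protocols, which name no step that marks the strand. The deposited files hold expected counts, that is, fractional read estimates for 76183 RefSeq transcript models, per the file headers and the values. RSEM 1.3.3, STAR 2.7.8a and Trim Galore 0.6.6 are listed, with no role, per the submitters' processing notes. Genome build, annotation release and filters were not given in the sources used here. Reads shared by models or near-identical genes are split by estimation.

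Expected counts were summed per gene symbol and rounded, and 24 symbols that had become dates were separated by accession through RefSeq's gene list for the T2T-MFA8v1.1 assembly. There, 6 of the 10 genes overlap no other gene, and DLAT, PDK1, PDK2 and PDP1 overlap others whose reads cannot be told apart without strand. Scaling used edgeR 4.0.16 (R 4.3.3) and its trimmed mean of M-values (TMM), with factors of 0.952 (lean) and 1.05 (non-lean). Ratios used a prior count of 0.5. Their intervals are exact Clopper-Pearson intervals of the split of the summed count, and intervals of a change in a count ratio are exact conditional ones, with Python 3.11.15 and scipy 1.17.1. Reads copied by PCR carried no molecular identifiers and are not independent, so these intervals hold counting error and nothing else. The interval code was tested on simulated data.

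Alternatives were total counts, DESeq2 1.42.0 size factors, upper quartile factors, a prior count of 2, unrounded counts, other filters, a fold of 1.5 and the leading transcript model alone. The members and lists were chosen with earlier results of these data known, and the complex I and long transcript lists after the values were seen. All 10 members were named. From each other pathway list the genes with the highest and the lowest ratio were named and any other member could be, and for likeness the 3 tested genes nearest to PDK4 in both levels were taken. Of 136 listed genes 6 were not matched by symbol. Some members of the other lists are not reported here by name, although they count in their lists.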

Additional observations from a re-analysis of the deposited data

How the results depend on the processing

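Of the 10 ratios, those of PDHA1, PDHX, PDK2, PDP1 and PDP2 kept their direction and their side of 0 under each other scaling, the prior count of 2 and unrounded counts. Total counts shift the median tested gene by 0.14 (log2) and gave 0.72 for PDHA1, 0.24 for PDHB, -0.042 for DLAT, 0.59 for PDK2 and -0.62 for PDP1. With them 931 tested genes were at least 2-fold higher and 732 lower, a share of 56.0% higher against 40.7%. With the leading transcript model alone PDP1 turned to 0.30, PDK1 stood at -0.92, PDK2 at 0.88 and PDP2 at -6.08, a value that depends on the prior count because that model was at 0 in the non-lean library. Such a model holds part of a gene's counts. It gave kinase shares of 76.9% for PDK2, 2.54% for PDK3 and 14.8% for PDK4 in the lean library, and 1.88% for PDK1 and 9.13% for PDK4 in the non-lean library. PDP1 then took 92.1% of phosphatase counts in the lean against 100% in the non-lean library.

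Members at least 2-fold lower numbered 1, and 0 at a mean CPM of at least 5, where PDP2 drops out, and 4 at a fold of 1.5. Tested genes at least 2-fold higher numbered 673, against 1082 without the filter, 231 at a mean CPM of at least 5 and 1629 at a fold of 1.5. Those at least 2-fold lower numbered 982, against 485 and 2112 under the last pair of settings. No paired analysis was possible because each group has 1 library, and no library could be left out. Centring on genes of like protein length was not run, since protein lengths are not in the reference used here. PDK3 and PDP2 rest on few counts.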
